A study of Mus musculus with 8 samples.

Results

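The 42 forkhead genes described here are the protein-coding mouse genes whose symbols begin with Fox, a letter from a to s and a digit, chosen by symbol from the 21900 protein-coding genes of the RefSeq annotation of GRCm38, with a pair of genes of the family not analysed here. Forkhead factors bind DNA through a winged-helix domain, and some, such as the FOXA proteins, can bind compacted chromatin and act as pioneer factors. Members pattern the embryo, drive the cell cycle or carry insulin signals to the nucleus. In early mouse embryos, FOXD3 acts in pluripotent cells and FOXH1 in Nodal signalling.

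The study mapped ZGLP1 on the genome by sequencing after chromatin immunoprecipitation (ChIP-seq). ZGLP1 carries zinc fingers like those of GATA factors, and the title names it as a determinant of oogenic fate. All 8 libraries came from C57BL/6 x DBA2 cells made to overexpress V5-tagged Zglp1 with doxycycline (Dox), inputs included, so no group lacked the tagged protein. The 5 libraries made with an anti-V5 antibody were from primordial germ cell-like cells (PGCLCs) of culture day 7 (c7) with Dox only, c8 PGCLCs with Dox only, c7 PGCLCs with Dox and retinoic acid (RA), c8 PGCLCs with Dox and RA, and embryonic stem cells (ESCs) with Dox and RA. The 3 inputs were c8 PGCLCs with Dox only, c8 PGCLCs with Dox and RA, and ESCs with Dox and RA. PGCLCs were treated from culture day 3 and sorted for a reporter named SC and for mCherry, and ESCs were treated for 24 h and sorted for mCherry. Each group was 1 library, and the sources used here do not give the promoter behind the transgene.

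The data are 32927 peak summits in a single list that names no library and holds no height. Groups were therefore not compared, read depth is unknown, and where no summit is listed, binding below the threshold of the authors cannot be told apart from none. Distances run from a summit to the nearer gene boundary, which is either end of the annotated gene. The start of a gene, where it is named, is the boundary at which the gene begins on its strand. The strand is known only for the 26 members found in the RefSeq promoter table (GRCm38.p6). A promoter window of that table may use another start, inside the gene.

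A boundary of 28 of the 42 forkhead genes lay within 1 kb of a summit (66.7%), of 35 within 10 kb (83.3%) and of 37 within 50 kb (88.1%). Over all protein-coding genes the shares were 52.9% within 1 kb, 66.6% within 10 kb and 78.0% within 50 kb. Exact 95% binomial intervals of the forkhead shares ran from 50.5 to 80.4% at 1 kb, 68.6 to 93.0% at 10 kb and 74.4 to 96.0% at 50 kb, and cover counting error only, with genes taken as independent. No test of the list was made. The median forkhead gene had 2 summits within 10 kb and its closest summit 408 bases from a boundary, against 1 summit and 657.5 bases for the median protein-coding gene. Having 2 or more summits within 10 kb was found for 26 forkhead genes (61.9%) and for 44.1% of all protein-coding genes.

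**Figure D1:**
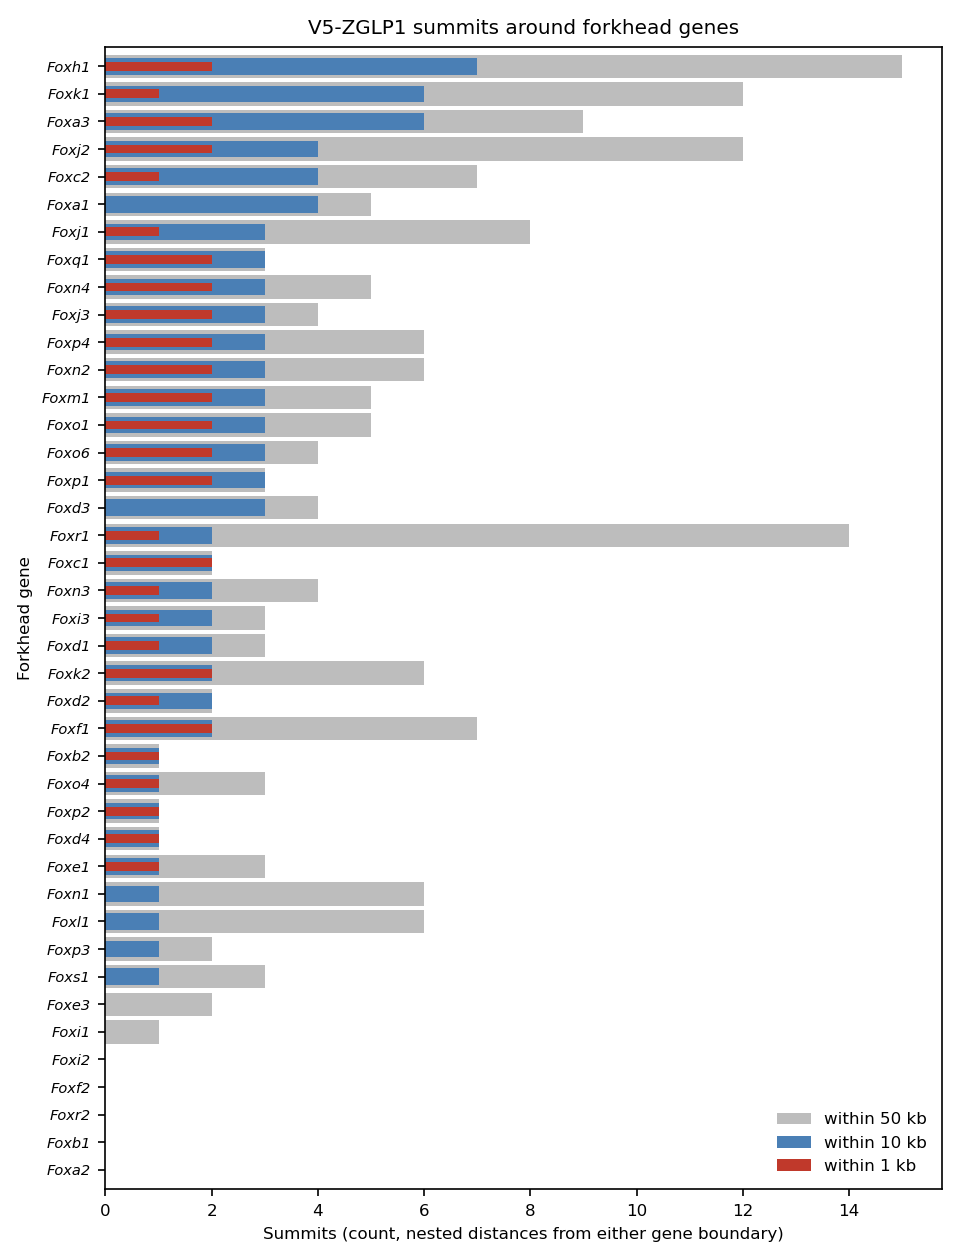
Summits counted within 50 kb (grey), 10 kb (blue) and 1 kb (red) of either boundary of the forkhead genes, all but 1 of the 42 drawn, one gene per row, ordered by the 10 kb count. Foxh1 leads with 7 within 10 kb, and the 5 lowest rows have none within 50 kb.

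In 6 of the 26 genes of the promoter table, a summit lay inside a promoter window. A window runs from 250 bases before the start that it uses to 50 after it. Their windows are shown 5′ to 3′ on the strand of the gene, because they are the forkhead windows of that table that held a summit. The 16 members without a window could not be examined in this way. The window of Foxn3 uses a start inside the gene, so the summit 95 bases before its annotated start is not among the 6. Capitals mark the 41 bases centred on the summit.
Foxd1: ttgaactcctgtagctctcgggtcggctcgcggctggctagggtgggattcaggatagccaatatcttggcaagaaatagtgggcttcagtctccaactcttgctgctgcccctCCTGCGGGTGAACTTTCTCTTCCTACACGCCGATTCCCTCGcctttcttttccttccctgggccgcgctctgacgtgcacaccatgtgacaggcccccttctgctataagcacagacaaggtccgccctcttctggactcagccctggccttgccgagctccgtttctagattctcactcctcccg
Foxi3: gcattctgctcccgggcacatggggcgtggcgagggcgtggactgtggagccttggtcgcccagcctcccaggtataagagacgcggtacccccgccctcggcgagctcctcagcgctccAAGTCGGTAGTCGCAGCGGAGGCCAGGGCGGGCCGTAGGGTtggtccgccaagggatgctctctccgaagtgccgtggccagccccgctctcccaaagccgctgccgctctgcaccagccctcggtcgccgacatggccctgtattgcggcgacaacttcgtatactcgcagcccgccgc
Foxj3: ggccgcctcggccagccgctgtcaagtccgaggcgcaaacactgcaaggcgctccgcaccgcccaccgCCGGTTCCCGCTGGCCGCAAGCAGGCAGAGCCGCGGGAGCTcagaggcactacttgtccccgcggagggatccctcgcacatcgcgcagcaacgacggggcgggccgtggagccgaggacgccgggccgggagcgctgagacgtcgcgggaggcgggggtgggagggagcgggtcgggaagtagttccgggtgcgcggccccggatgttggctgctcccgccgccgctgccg
Foxn4: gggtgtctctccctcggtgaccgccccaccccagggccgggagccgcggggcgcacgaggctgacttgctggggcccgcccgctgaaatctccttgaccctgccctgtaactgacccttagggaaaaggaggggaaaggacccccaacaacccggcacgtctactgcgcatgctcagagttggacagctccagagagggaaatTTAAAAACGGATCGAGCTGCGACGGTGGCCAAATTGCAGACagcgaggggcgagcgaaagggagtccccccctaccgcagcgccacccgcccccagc
Foxp4: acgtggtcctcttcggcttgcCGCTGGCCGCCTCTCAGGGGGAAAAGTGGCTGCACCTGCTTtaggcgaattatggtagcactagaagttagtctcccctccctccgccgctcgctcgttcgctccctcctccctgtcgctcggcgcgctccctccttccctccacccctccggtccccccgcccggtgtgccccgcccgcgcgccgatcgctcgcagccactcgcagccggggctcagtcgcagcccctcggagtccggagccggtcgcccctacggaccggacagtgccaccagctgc
Foxr1: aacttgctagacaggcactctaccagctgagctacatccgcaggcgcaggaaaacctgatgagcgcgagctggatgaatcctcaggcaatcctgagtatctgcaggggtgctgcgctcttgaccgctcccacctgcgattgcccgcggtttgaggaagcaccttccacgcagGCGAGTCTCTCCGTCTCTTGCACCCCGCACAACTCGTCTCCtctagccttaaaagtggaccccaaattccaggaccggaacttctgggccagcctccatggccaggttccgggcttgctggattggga
These windows are chr13:98353995-98354294 on the plus strand (Foxd1), chr6:70956356-70956655 on the plus strand (Foxi3), chr4:119539411-119539710 on the plus strand (Foxj3), chr5:114273712-114274011 on the minus strand (Foxn4), chr17:47924583-47924882 on the minus strand (Foxp4) and chr9:44440819-44441118 on the minus strand (Foxr1). The summit stood 116 bases before the start used by the window in Foxd1, 110 in Foxi3, 162 in Foxj3, 27 in Foxn4, 209 in Foxp4 and 58 in Foxr1. The window of Foxn4 uses a start inside the annotated gene, so the same summit stood 630 bases inside the gene's boundary. A gene may have several windows, and 6 of the 31 forkhead windows held a summit (19.4%), against 25.2% of the windows of protein-coding genes.

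The letters that GATA factors are known to bind were searched on both strands as AGATAA, with T allowed in place of the first letter and G in place of the last. None of the 6 forkhead windows with a summit held any of them, while 13.9% of all protein-coding windows with a summit did. Of the 25 forkhead windows without a summit, 4 held such letters, against 30.1% of protein-coding windows without one. The forkhead letters TGTTTAC, which share no site with the GATA letters, were found on either strand in 1 of 31 forkhead windows, that of Foxa1, and in 3.01% of protein-coding windows. The 6 windows with a summit held between 15 and 42 CpG pairs with a median of 26.5, and the 25 without held a median of 13, against 24 and 7 for protein-coding windows with and without a summit. A match is only a run of letters and not a binding site.

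Foxd3 and Foxa1 are shown next, since each had 3 or more summits within 10 kb but none in its window, and their windows hold the searched letters, here in capitals and in both cases on the opposite strand (CTATCA of the GATA letters in Foxd3, and GTAAACA of the forkhead letters in Foxa1).
Foxd3: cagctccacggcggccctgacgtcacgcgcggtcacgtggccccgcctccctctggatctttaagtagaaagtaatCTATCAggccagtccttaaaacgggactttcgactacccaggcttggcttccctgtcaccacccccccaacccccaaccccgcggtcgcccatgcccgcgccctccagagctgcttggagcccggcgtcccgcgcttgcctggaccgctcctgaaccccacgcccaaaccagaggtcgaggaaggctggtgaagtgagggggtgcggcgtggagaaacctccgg
Foxa1: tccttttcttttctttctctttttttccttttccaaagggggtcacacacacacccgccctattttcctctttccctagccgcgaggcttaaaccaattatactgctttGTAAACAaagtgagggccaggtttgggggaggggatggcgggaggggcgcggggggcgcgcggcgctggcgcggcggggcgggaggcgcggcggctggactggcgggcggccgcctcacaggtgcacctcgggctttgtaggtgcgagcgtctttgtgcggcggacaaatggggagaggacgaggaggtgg
The windows are chr4:99656049-99656348 on the plus strand (Foxd3) and chr12:57546062-57546361 on the minus strand (Foxa1).

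Members that act in pluripotent cells and in Nodal signalling both had summits nearby. Foxh1, whose protein joins SMAD complexes at Nodal target genes (chromosome 15, 76667829 to 76671614), had 7 summits within 10 kb, the highest count of the family. The closest lay 41 bases outside its upper boundary at 76671655, and another lay 465 bases outside its lower boundary at 76667364. Foxh1 overlaps Kifc2, and the closest summit lay only 12 bases from a boundary of Ppp1r16a. Of the 15 summits within 50 kb of Foxh1, 2 were nearer to Foxh1 than to any other protein-coding gene and 9 lay within 1 kb of another gene.

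Foxd3, which encodes a regulator of pluripotent cells and neural crest (chromosome 4, 99656299 to 99658671), had 3 summits within 10 kb and none within 1 kb. They stood 5355 and 2746 bases before the gene start and 3621 bases past its end, and 1 more stood 20058 bases before the start. No other protein-coding gene lay within 50 kb, so all 4 were nearest to Foxd3.

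The FOXA factors, pioneer factors of endoderm, differed from one another. Foxa3 had 6 summits within 10 kb, Foxa1 had 4 and Foxa2 had 0. In Foxa1 (chromosome 12, 57540628 to 57548029) a summit stood 1543 bases outside the lower boundary and 3 stood inside the gene. Of these 3, those at 57545474 and 57546843 were nearer to a boundary of the overlapping Ttc6 than to one of Foxa1. The promoter window of Foxa1 uses a start inside the gene. The summit at 57545474 stood 637 bases from that start and 1230 bases from Ttc6. Of the 9 summits within 50 kb of Foxa3, 8 were nearer to another gene, such as Irf2bp1 and Sympk. The closest summit to Foxa2 (chromosome 2, 148042877 to 148046969) was 360885 bases away, the longest distance among the members, and lay by Thbd.

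Other regulators of embryonic patterning spread from close summits to none. Foxd1, a gene of kidney stroma, and Foxi3, a gene of ectodermal appendages and the ear, had their closest summits at 116 and 110 bases, both before the gene start. Foxd4 had 1 summit 503 bases inside its start. Foxe1, a thyroid gene, had 1 at 837 bases. Foxb2 had a single summit, 62 bases inside the end of the gene and 1452 bases from its start. Its relative Foxb1 had none within 50 kb, with the closest at 84399 bases.

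Foxi3 had 2 summits within 10 kb, while the summit closest to Foxi1, a gene of the inner ear and kidney, was 34331 bases away and that closest to Foxi2 was 63817 bases away. Foxs1 had 1 summit at 9503 bases, and it lay 670 bases from a boundary of Mylk2.

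Forkhead genes also stand beside each other. On chromosome 8, Foxf1, Foxc2 and Foxl1, which act in mesoderm, vessels and gut mesenchyme, lie within a span of 46259 bases that held 5 summits, and the span with 50 kb on each side held 7. Foxf1 had summits 622 bases outside and 784 bases inside its lower boundary. Foxc2 had one 698 bases inside its lower boundary and another 2701 bases outside it, and Foxl1 had a single summit within 10 kb, 2156 bases away. That summit, at 121125529, also lay 6634 bases from Foxc2, and the summit at 121108319 lay 94 bases from Mthfsd.

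On chromosome 13, Foxq1 and Foxf2 are 64839 bases apart, and all 3 summits of that stretch lay at Foxq1, which acts in hair and epithelia. They stood 85 bases outside its lower boundary, 1008 bases inside it, and 929 bases inside its upper boundary. No summit lay within 50 kb of Foxf2, a gene of palate and brain vessel development, and the closest was one of Foxq1, 65769 bases away. Foxc1, on the same chromosome but over 100 kb from Foxf2, had one 720 bases inside its start and one 82 bases past its end. On chromosome 4, Foxd2 had summits 515 and 1250 bases before its start, and Foxe3, a lens gene 15544 bases from it, had none within 10 kb, with the closest of these 2 summits 14295 bases away.

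**Figure D2:**
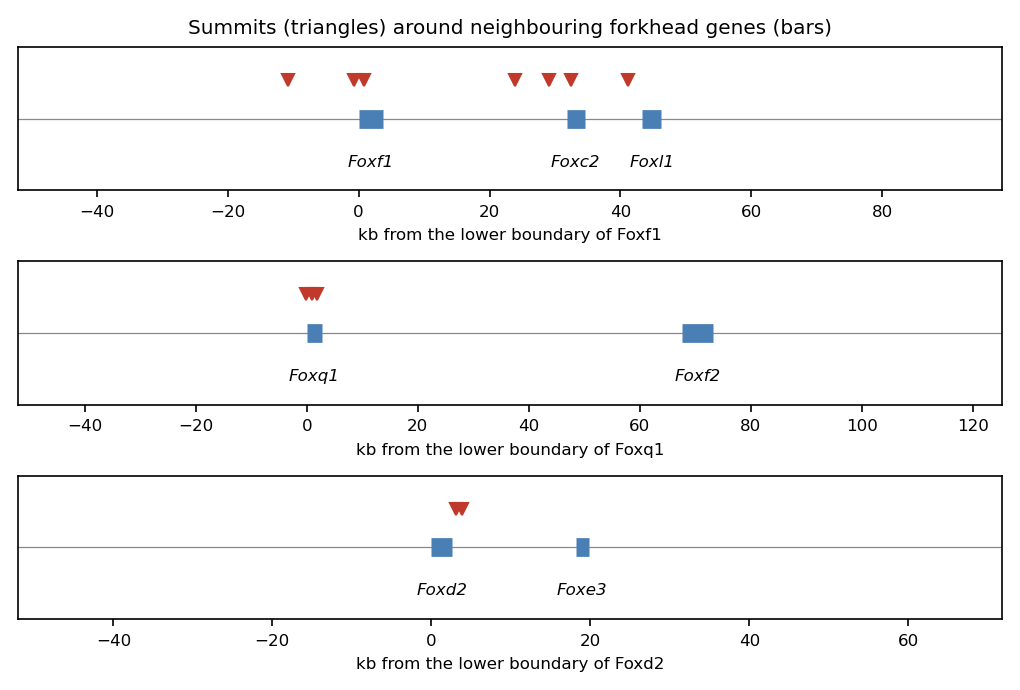
Positions of summits (red triangles) and forkhead genes (blue bars) in kb from the lower boundary of the first gene of each run, drawn with 50 kb on each side. The 7 summits of the upper panel are spread over Foxf1, Foxc2 and Foxl1, while the 3 of the middle panel stand at Foxq1 and the 2 of the lower panel beside Foxd2.

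Every member analysed of the Foxj, Foxk, Foxm and Foxo subfamilies had a summit within 1 kb, against 52.9% of all protein-coding genes. The same held for Foxc, Foxh and Foxq, and each of these subfamilies has at most 3 members here. Other subfamilies had lower shares, such as 33.3% in Foxa and in Foxi, and Foxl1 and Foxs1 had no summit within 1 kb. Foxj2, Foxj3, Foxk1, Foxk2, Foxo1 and Foxo6 are over 20 kb long, and 61.6% of protein-coding genes of 20 kb or more had one within 1 kb. Foxj1, the regulator of motile cilia, had the closest summit of the family, 37 bases inside its upper boundary (chromosome 11, 116335462). Foxj2 had summits 133 and 653 bases inside its start, and Foxj3 had one 162 bases before its start and one 616 bases inside it. Foxk1, whose protein binds SIN3 corepressors (chromosome 5, 142401497 to 142462015), had 6 within 10 kb. Foxk2 had one 325 bases before its start and one 712 bases inside it.

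Foxm1, a regulator of mitotic genes (chromosome 6, 128362994 to 128375886), had summits 379 bases outside and 323 bases inside its lower boundary. It overlaps Tex52, and 1 of its 5 summits within 50 kb was nearest to Foxm1. Among the FOXO genes, whose products are kept out of the nucleus when AKT is active, Foxo1 (chromosome 3, 52268337 to 52350109) had summits 337 bases before its start and 488 and 1687 bases inside it. No other protein-coding gene lay within 50 kb of Foxo1 or Foxo6, and all of their summits within 50 kb, 5 for Foxo1 and 4 for Foxo6, were nearest to the gene itself. The X-linked Foxo4 had one 152 bases outside its upper boundary.

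The Foxn and Foxp genes include the longest members. Foxn3, a checkpoint gene, had a summit 95 bases before its start. The promoter window of Foxn3 uses another start, inside the gene, and the summit closest to that one was 56704 bases away. Foxn4, a gene of retinal progenitors, had summits 93 and 630 bases inside its start. Foxn2 had summits 257 bases outside and 230 bases inside its lower boundary. Foxn1, the thymic epithelium gene mutated in nude mice, had 1 within 10 kb, which lay 1021 bases inside the end of the gene and 28185 bases from its start. Foxp1 had summits 565 bases before its start and 456 and 1141 bases inside it, Foxp4 had them 209 bases before and 493 bases inside its start, and Foxp2, a gene of vocal and motor circuits, had 1 summit 318 bases inside its lower boundary.

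Foxp3, the regulator of regulatory T cells on the X chromosome, had 1 summit within 10 kb, 5761 bases before its start and 366 bases from Ppp1r3f. Foxr1, a member with few described roles, had one 58 bases before its start, and the X-linked Foxr2 had none within 50 kb. Of the 3 X-linked members, 2 had a summit within 10 kb, against 29.2% of X-linked protein-coding genes, and of the 39 autosomal members 33 did (84.6%), against 69.1% of autosomal protein-coding genes.

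In some members summits stood on both sides of the same boundary. This was so within 1 kb for 9 forkhead genes (21.4%), namely Foxf1, Foxj3, Foxk2, Foxm1, Foxn2, Foxo1, Foxo6, Foxp1 and Foxp4, against 11.6% of all protein-coding genes. Of the 28 members with a summit within 1 kb these are 9, against 21.9% of protein-coding genes with such a summit. In each of the 5 with a known strand that boundary was the gene start. The outer summit of Foxm1, 379 bases from its boundary, was nearer to Rhno1, at 296 bases. The inner and outer summits were a median of 825 bases apart in the forkhead genes, with a range from 487 (Foxn2) to 1406 (Foxf1), and 735 bases apart over all protein-coding genes. No neighbouring summits of the list were closer than 397 bases, which limits how near such a pair can be. A summit within 1 kb of each of the 2 ends was found for 4 of the 39 members over 2 kb long, Foxa3, Foxc1, Foxh1 and Foxq1, against 4.02% of all protein-coding genes over 2 kb. That background is not matched for length. The summits at the upper boundaries of Foxa3 and Foxh1 were nearer to Sympk, at 279 bases, and Ppp1r16a, at 12 bases.

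Where the strand was known, the closest summit within 1 kb was at the gene start in 14 of 16 members and at the gene end in Foxb2 and Foxc1. Foxb2 is under 2 kb long, and of the members over 2 kb it was at the start in 14 of 15. Over all protein-coding genes longer than 2 kb with a known strand it was at the start in 95.6%. In 13 of the 28 members with a summit within 1 kb the closest one was inside the gene, and in 15 outside.

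**Figure D3:**
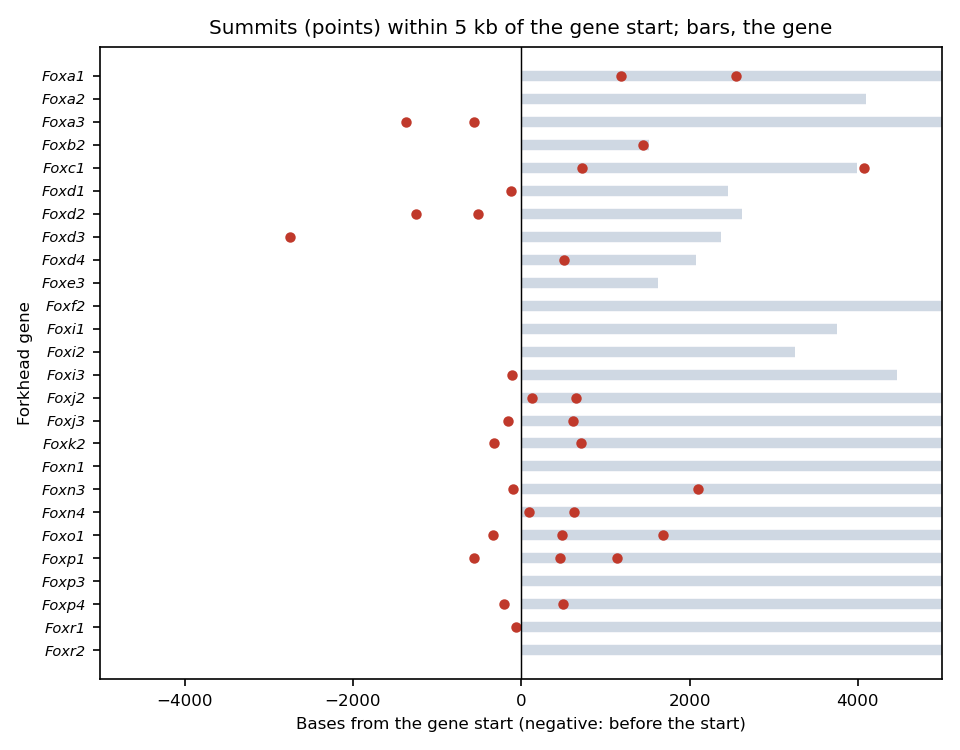
Summits (red points) within 5 kb of the gene start for the 26 forkhead genes with a known strand, in bases, with negative values before the start and pale bars for the gene. Points stand on both sides of the start in Foxj3, Foxk2, Foxn3, Foxo1, Foxp1 and Foxp4, and past or near the end of the gene in Foxb2 and Foxc1.

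Long members differed in how many summits they held inside. Foxn3 (373587 bases) held 14, of which 12 were over 50 kb from either end and were nearest to Gm51999, a gene annotated within it. Of these 12, all but those at 143 and 274 bases lay 10508 to 92079 bases from a boundary of Gm51999. Foxp1 (597405 bases) held 8, of which 6 were over 50 kb from either end, and all 8 were nearest to Foxp1. Of these 6, the summits at 99027919 and 99028611 stood on either side of an internal start used by a promoter window of Foxp1. The closer of them was 313 bases from that start. Foxp2, with 540629 bases, held 1. Foxk1 held 9 in 60519 bases, the highest density among the 13 members of 20 kb or more, at 14.9 per 100 kb, against 0.185 in Foxp2. Over 10 kb from either end, Foxn3 held 13, Foxp1 held 6, Foxk1 held 5 and Foxp4 held 1.

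Forkhead genes are mostly short, with a median length of 5193.5 bases against 17146 bases for all protein-coding genes. Among genes under 5 kb, 16 of 21 forkhead genes had a summit within 10 kb (76.2%), against 40.5% of all protein-coding genes of that length. From 5 to 20 kb it was 6 of 8 (75.0%), against 72.1%. At 20 kb or more it was 13 of 13, against 75.9%. The shares over all protein-coding genes, those by length included, count olfactory, vomeronasal, trace amine receptor and keratin-associated families. Without those families the share within 10 kb was 71.4% over all lengths. It was not computed by length, so the 40.5% for genes under 5 kb still holds them.

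The median count within 50 kb was lowest in members with few neighbouring genes. Over the 42 members, Spearman's rho between summits within 50 kb and other protein-coding genes within 50 kb was 0.603, a description with no test, since neighbours share summits. Over all protein-coding genes it was 0.481. For summits within 10 kb, rho was 0.221 over the members and 0.306 over all protein-coding genes. The 21 members with at most 1 other gene within 50 kb had a median of 2 summits and a range from 0 to 6, against a median of 1 for protein-coding genes with as few neighbours. With 2 or 3 other genes the medians were 6 for the 11 members and 3 for protein-coding genes, and with 4 or more they were 5.5 for the 10 members and 6 for protein-coding genes. Foxr1, with 7 other genes, had 14 summits within 50 kb, of which 2 were nearest to Foxr1 and 7 to Bcl9l. Foxj2 had 12 within 50 kb, with 4 nearest to Foxj2 and 6 to Slc2a3. Foxk1 also had 12, and 11 of them were nearest to Foxk1. In 5 of the 35 members with a summit within 10 kb the closest one was nearer to another gene, and these were Foxa1, Foxa3, Foxh1, Foxp3 and Foxs1.

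**Figure D4:**
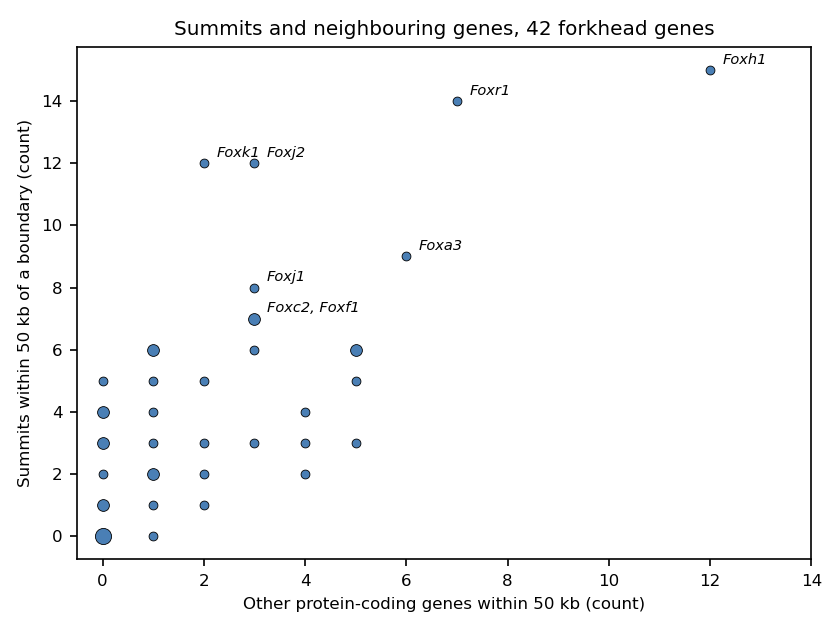
Summits within 50 kb of a boundary against other protein-coding genes within 50 kb for the 42 forkhead genes, with larger points where several genes coincide. Foxh1 with 15 summits and 12 genes and Foxr1 with 14 and 7 stand at the upper right, and Foxk1 has 12 summits with 2 genes.

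Families of other developmental regulators gave shares near those of the forkhead genes at 10 kb. A summit lay within 10 kb of 84.2% of the 19 Sox genes and of 85.7% of a set of 91 homeobox and Pax genes outside the Hox clusters. That set was picked by symbol prefixes, such as Lhx, Pax and Nkx, and leaves out other homeobox genes, such as Hhex and Gsc. All 39 Hox genes had one. Forkhead genes had a median of 1.5 other protein-coding genes within 50 kb, and Hox genes, which share clusters and summits, had 7. Within 1 kb, the share was 66.7% for forkhead genes, 68.4% for Sox genes, 56.0% for the homeobox and Pax set and 46.2% for Hox genes. These differences were not tested.

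**Figure D5:**
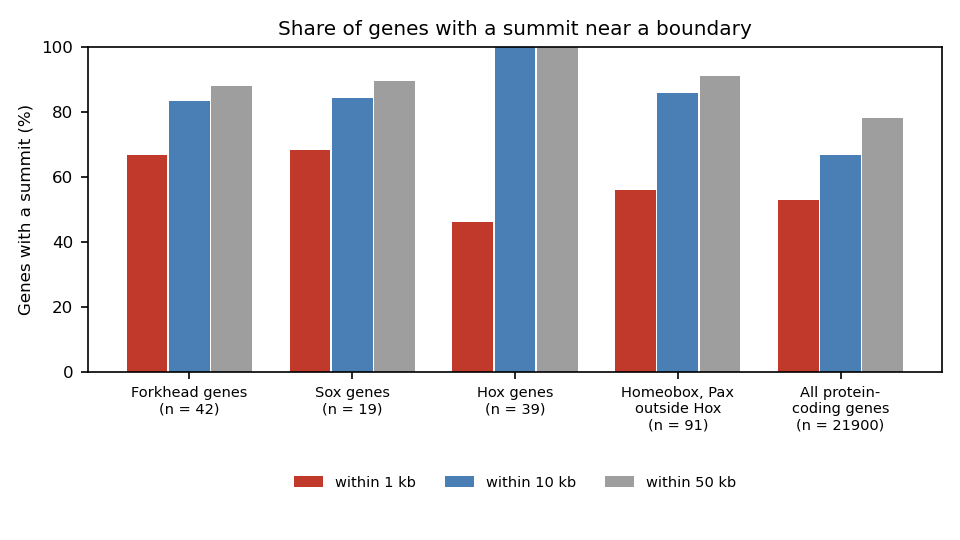
Percent of genes with a summit within 1 kb (red), 10 kb (blue) and 50 kb (grey) of either boundary, with the number of genes under each name. Forkhead genes stand at 66.7, 83.3 and 88.1%, and all protein-coding genes at 52.9, 66.6 and 78.0%.

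Genes that act with forkhead factors were counted from 8 lists, with the 66.6% of all protein-coding genes as the background within 10 kb. That background is not matched for length. Median gene length ran from 8010.5 bases (FOXH1 and Nodal) to 54257.5 bases (insulin and AKT signalling). Among protein-coding genes of 20 kb or more the share was 75.9%. Of the insulin and AKT signalling genes that control FOXO proteins, 22 of 22 had a summit, led by Ywhag, a 14-3-3 gene, with 9, and the kinase genes Akt2 with 7 and Akt1 with 6. Of FOXO target genes, 18 of 20 did, led by the cell cycle inhibitor genes Cdkn1a with 8 and Cdkn1b with 5 and the apoptosis gene Bcl2l11 with 5. G6pc and Igfbp1, liver targets of FOXO1, had none within 10 kb. Irs2 and Rictor, which had summits within 10 kb, are counted in both of these lists.

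Both FOXM1 lists were complete. Of the FOXM1 and DREAM complex partners 12 of 12 had a summit within 10 kb, led by Mybl2 with 10, E2f4 with 5, and Lin54 and Lin9 with 4 each, and of FOXM1 target genes 14 of 14, led by the mitotic gene Aurkb with 7, ahead of Ccnb1, Cdc20, Cdc25b and Kif20a with 4 each. Of the FOXH1 and Nodal genes 15 of 16 did, among them the receptor gene Acvr1b with 6 and the coreceptor gene Tdgf1 with 5, and the exception was T, a mesoderm gene. Of the corepressor partners of FOXK and FOXP 14 of 14 did, among them Sin3a with 6, and Hdac1 and Mbd6 with 5 each.

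The FOXA endoderm list was the lowest, with 9 of 14 (64.3%). Cdx2, a gut gene, had 8 summits, Gata6 had 3 and Hhex had 2, while Hnf4a, Gata4, Cer1, Ttr and Alb had none within 10 kb, and Alb, the albumin gene, none within 50 kb. Of the cilia list 13 of 15 did, led by Ccdc40 with 5, Mcidas with 4, and Rfx2 and Spag6 with 3 each, and Gmnc, a multiciliation gene, had none within 50 kb. The difference between the lists was not tested. The cilia list also holds Tubb3, a tubulin gene of neurons.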

How the data were processed

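Per the submitters' processing notes, the tools were MACS2 2.1.1.20160309, HOMER 4.9.1, bedtools, SAMtools 1.3, Picard 2.1.0, Bowtie 1.1.2, cutadapt 1.9.1 and Trim Galore 0.4.1, and the build was mm10, with no settings given. The authors deposited positions of summits in bases, and the start equals the end for all 32927 of them. Which libraries gave which peaks, and the threshold, are not given in the sources used here, so precision is unknown. Positions may count from 0 or from 1, so a distance may be off by 1 base.

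Genes, with 1 start and 1 end each, and promoter windows were RefSeq's for GRCm38.p6. Strand was taken from the windows, which 26 of 42 members matched. No exon or transcript was used. Counts and shares are descriptions beside all 21900 protein-coding genes, and no test was planned or run. Members, lists and distances were chosen with earlier results of these data known. Genes were named by rule: the 10 members with most summits and the 10 with the closest, those with none within 50 kb, neighbouring members under 100 kb apart, a fixed set of 19, and the 3 leading genes of each list, with those tied with them. Other members are given as well, except that 1 member and 2 leading genes of lists, all kept in the counts, are not reported here, and Gm51999 and other neighbours were named after their values were seen. Also chosen after the members' values were seen were the summit pairs on both sides of a boundary, the length classes, the share without receptor and keratin-associated families, the counts by number of neighbours with their rho, the summits inside long members, and the promoter windows of Foxd3 and Foxa1. List names were matched to 127 of 127 entries, 2 by synonym, and 2 genes stand in more than 1 list. Counting was checked on simulated summits at 300 genes, of which 300 matched a direct calculation. Software was matplotlib 3.10.9, SciPy 1.17.1, pandas 2.3.3, numpy 2.4.6 and Python 3.11.15.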

Additional observations from a re-analysis of the deposited data

How the results depend on the processing

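Of 19 alternative values, 16 stayed within the interval of the reported share or within 1.5 times the reported median, and 3 did not. In all 13 alternative shares, which recount the same genes and the same list of summits, forkhead genes stood above all protein-coding genes. The share of promoter windows with a summit is not among the 13. It was lower for forkhead windows, 19.4% against 25.2% of protein-coding windows. With only summits over 1 kb from every protein-coding boundary, 54.8% of forkhead genes had one within 10 kb, against 35.6% of all protein-coding genes. Within 100 kb the share was 97.6%, against 83.4%. With a summit inside a gene taken as distance 0, the median distance was 0 in both. Within 500 bases the shares were 52.4% for forkhead genes and 47.6% for all protein-coding genes, and from the gene start alone within 1 kb they were 57.7% and 51.5%. Stricter thresholds and single libraries were not run, since the list has no score and names no library. No paired analysis was possible because the list names no sample.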
